A study of Rattus norvegicus with 12 samples.

Results

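Low-dose IL-1β preconditioning was compared with no treatment in INS-1E cells, an insulin-secreting line cloned from a rat insulinoma and used as a β-cell model. The comparison took the 3 libraries of cells preconditioned with IL-1β at 10 pg/ml for 72 h (IL-1βlow) and the 3 libraries of untreated cells, 6 of the 12 libraries of the study, and all 14324 of 34034 genes whose read count, scaled to library size (CPM), exceeded 1 in at least 2 of the 12 libraries. Fresh IL-1β was given every 24 h and the medium was not changed during the 72 h. All groups were wild-type cells of this 1 line and are labelled as differing by cytokine exposure alone. The other 6 libraries came from cells challenged for 16 h with CYT, a mixture of IL-1β at 100 pg/ml and IFN-γ at 5 ng/ml, without preconditioning (CYT) or after it (IL-1βlow + CYT). They are used here to see how the same genes behaved with and without preconditioning in libraries outside the 2 groups first compared. The filter, scaling and estimate of spread of that first comparison used all 12 libraries. The medium was renewed before the challenge, and the study's description implies that unchallenged cells were kept for the same 16 h after it.

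IL-1β is a cytokine of macrophages and other immune cells that infiltrate the islets in type 1 diabetes. It binds its receptor on β-cells and recruits the adaptor MyD88 and the kinases and ubiquitin ligases behind it, which release NF-κB from its inhibitors so that it can reach promoters in the nucleus. At high doses and with IFN-γ it induces nitric oxide synthase, stress of the endoplasmic reticulum (ER) and apoptosis of β-cells. The question behind the comparison is what the low dose alone does to the transcriptome of the cells before any challenge.

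The 6 libraries carried the identity of the line. The insulin genes Ins1 and Ins2, the amylin gene Iapp and the transcription factors Mafa, Pdx1 and Nkx6-1 had counts in each library, and the 9 β-cell markers together reached 32916 to 39314 CPM in untreated and 28759 to 33750 CPM in IL-1βlow libraries. The late maturity markers Ucn3 and G6pc2 stayed below 1 CPM in all 6. The 10 macrophage markers summed to 1.18 to 1.72 CPM in untreated and 0.872 to 1.11 CPM in IL-1βlow libraries, and 5 of them, among them Ptprc, had 0 counts in all 6 libraries. Total counts ran from 15812640 to 17835111 in untreated and from 15868003 to 19053194 in IL-1βlow libraries, of which the ribosomal RNA gene Rn45s took 6.89% to 10.3% and 8.33% to 9.85%. These are counts of reads without molecular identifiers. In bulk libraries, fewer cells that express a gene and less of its RNA per cell cannot be told apart.

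Of 14324 genes, 38 were higher in IL-1βlow cells (0.265%) and 24 were lower (0.168%) where a gene had to reach an adjusted p under 0.01 with a log2 fold change beyond 0.6 in either direction. The test was the quasi-likelihood test of edgeR, adjusted by Benjamini-Hochberg over all genes. The count depended on the test and the filter. The same limits were passed by 88 higher and 50 lower genes with edgeR's exactTest, which the study used, and by 94 and 44 with DESeq2, by 81 and 60 with a replicate block and by 129 and 100 with no filter on low counts. A looser rule, an adjusted p under 0.05 with no minimum fold change, was passed by 134 higher (0.935%) and 59 lower genes (0.412%). Among the genes that passed, the rises were steeper than the falls. Of the 38 genes that rose, 25 changed more than 2-fold and 11 more than 4-fold, with a median log2 fold change of 1.123. Of the 24 that fell, 8 changed more than 2-fold and 0 more than 4-fold, with a median of -0.77. The median over all genes was 0.0044, and the middle 90% of genes lay between -0.49 and 0.42.

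The risers started from a low level. Their median level in untreated cells was 9.66 CPM, and 8 of the 38 were below 1 CPM there, against a median of 78.4 CPM and 0 genes below 1 CPM for those that fell. The filter counted all groups, so genes below 1 CPM in untreated cells could be tested through groups where they were high. The 8 rises from below 1 CPM were all among the 11 that exceeded 4-fold. A fall from below 1 CPM can hardly be called. The differences in starting level and in steepness are therefore in part set by filter and detection. With at least 10 counts required in every library, 28 higher and 25 lower genes passed. Summed over genes, the rises added 936 CPM and the falls summed to -4057 CPM, most of it Ins2. In all 62 genes the IL-1βlow libraries lay wholly above or wholly below the untreated ones, which was also so for 23.7% of all genes tested. The number that passed depended on single libraries. It was 21, 29 and 16 without untreated library 1, 2 and 3, and 18, 23 and 74 without IL-1βlow library 1, 2 and 3, and 14 of the 62 genes passed in each of these 6 fits. These were C3, Cd74, Tmem176a, Tmem176b, LOC120096227, Rtbdn, LOC100910973, Cxcl12, Adamts16, Cxadrl1, Dpysl3 and Relt among the rises and Kcnn1 and Gabrq among the falls.

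**Figure D1:**
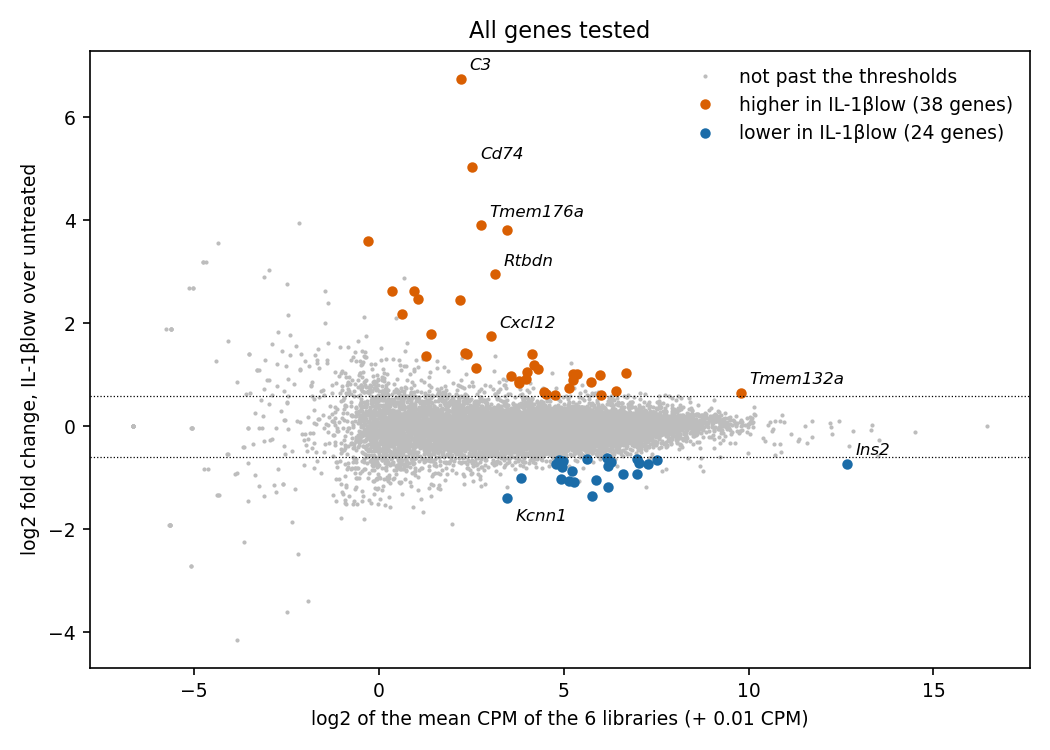
Log2 fold change of IL-1βlow over untreated cells (y axis) against the log2 of the mean CPM of the 6 libraries (x axis) for all 14324 genes, with the 38 genes past the thresholds as higher in orange, the 24 as lower in blue and the limits of 0.6 dotted. The largest rises, such as C3 at 6.75 and Cd74 at 5.03, stand at low expression, and the falls lie at middle and high expression, with Ins2 the most abundant.

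Promoter sequences were available in RefSeq's GRCr8 annotation for 29 of the 38 genes that rose and 19 of the 24 that fell, as 300 bases each, 250 of them before the start. Windows were searched on both strands for the κB consensus, the 10-base motif to which NF-κB dimers bind, and for the core of the interferon-stimulated response element. The κB consensus occurred in 11 of the 29 rising genes (37.9%), in 0 of the 19 falling genes and in 594 of 10925 genes tested (5.44%). The response element core occurred in 2 of the 29 (6.9%), in 0 of the 19 and in 345 of the 10925 (3.16%). These matches describe the letters of the windows and are not measurements of binding. The 250 bases before the start are printed for the 6 largest rises with an entry, because those windows show how the κB consensus is placed in the genes that changed most. Sequences run 5′ to 3′ on the strand of the gene, and capitals mark matches to the κB consensus on either strand.
C3 (chr9:2201340-2201589, GRCr8, minus strand): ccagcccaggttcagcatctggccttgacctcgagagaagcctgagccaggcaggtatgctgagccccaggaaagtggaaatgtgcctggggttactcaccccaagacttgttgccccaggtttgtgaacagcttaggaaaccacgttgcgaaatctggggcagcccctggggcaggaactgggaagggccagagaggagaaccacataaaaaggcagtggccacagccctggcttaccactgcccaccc
Cd74 (chr18:56526956-56527205, GRCr8, plus strand): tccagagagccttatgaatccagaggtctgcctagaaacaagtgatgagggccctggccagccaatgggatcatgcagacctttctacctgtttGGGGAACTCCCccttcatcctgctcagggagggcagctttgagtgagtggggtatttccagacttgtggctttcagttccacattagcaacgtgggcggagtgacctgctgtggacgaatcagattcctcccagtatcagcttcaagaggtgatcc
Tmem176a (chr4:79105569-79105818, GRCr8, plus strand): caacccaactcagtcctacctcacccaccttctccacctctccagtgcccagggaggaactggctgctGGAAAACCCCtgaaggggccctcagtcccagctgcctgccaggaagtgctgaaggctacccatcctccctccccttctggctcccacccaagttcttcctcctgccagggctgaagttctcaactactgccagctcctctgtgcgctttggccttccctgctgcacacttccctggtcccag
Tmem176b (chr4:79105264-79105513, GRCr8, minus strand): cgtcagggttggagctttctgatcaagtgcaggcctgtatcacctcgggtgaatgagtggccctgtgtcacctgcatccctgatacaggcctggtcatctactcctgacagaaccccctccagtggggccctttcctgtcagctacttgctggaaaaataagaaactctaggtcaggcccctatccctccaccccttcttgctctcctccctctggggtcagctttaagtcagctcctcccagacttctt
LOC120096227 (chr13:17425205-17425454, GRCr8, minus strand): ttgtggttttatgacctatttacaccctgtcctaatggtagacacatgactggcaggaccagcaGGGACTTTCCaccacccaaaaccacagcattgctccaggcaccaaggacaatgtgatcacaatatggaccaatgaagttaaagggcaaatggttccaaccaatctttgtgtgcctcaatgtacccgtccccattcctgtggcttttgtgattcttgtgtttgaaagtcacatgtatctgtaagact
Stap2 (chr9:924381-924630, GRCr8, minus strand): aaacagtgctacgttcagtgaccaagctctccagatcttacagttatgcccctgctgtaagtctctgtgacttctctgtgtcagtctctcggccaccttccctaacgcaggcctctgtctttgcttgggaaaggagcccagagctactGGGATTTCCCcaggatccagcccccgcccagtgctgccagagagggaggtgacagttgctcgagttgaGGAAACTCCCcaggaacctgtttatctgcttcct

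The Cd74 window held 2 overlapping matches, on opposite strands, that began 156 and 155 bases before the start. Stap2 held matches beginning 102 bases before the start, on both strands, and 34 bases before it. Tmem176a held 1 at 182 bases and LOC120096227 held 1 at 186 bases, with another at 222 bases in its second listed window. No match was found in the windows of C3 and Tmem176b. Further down the order of rises, LOC100910973, Mmd2, Madcam1, Cxadrl1, Rab15, Rab3b and Gch1 also had the motif in their windows, and LOC100910973 and Dpysl3 had the response element core.

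C3, the central component of the complement cascade, had the largest rise. It had 1, 2 and 1 counts in the 3 untreated libraries and 222, 130 and 133 counts in the IL-1βlow libraries, or 0.0573, 0.118 and 0.0608 CPM against 11.4, 7.97 and 8.20 CPM. The transcript was nearly absent without IL-1β, and every preconditioned library lay far above every untreated one. With 485 counts against 4 the ratio, scaled to library size, was 118-fold, and its exact counting interval (95%, Clopper-Pearson, counting error only) ran from 46.0 to 436. The fitted log2 fold change was 6.75 (standard error 0.38, adjusted p = 1.7e-07).

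Cd74, the invariant chain that chaperones MHC class II molecules, was the second largest. It stood at 0.573, 0.118 and 0.304 CPM in untreated and at 12.4, 10.7 and 10.4 CPM in IL-1βlow libraries. The preconditioned libraries differed little from each other, with a mean of 11.1 ± 1.07 CPM (SD, n = 3). The log2 fold change was 5.03 (standard error 0.23, adjusted p = 4.1e-08).

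Tmem176a and Tmem176b, neighbouring genes for related membrane proteins best known from dendritic cells, rose side by side. Tmem176a went from 0.344, 1.18 and 1.03 CPM to 12.9, 16.1 and 9.32 CPM, 3.90 ± 0.31 (SE) as a log2 fold change, with an adjusted p of 1.0e-05. Tmem176b went from 1.55, 1.42 and 1.40 CPM to 18.8, 25.6 and 17.8 CPM, 3.82 ± 0.21 (SE) as a log2 fold change, with an adjusted p of 1.7e-07. Their annotated extents overlap and the strand setting of the counting is not given, so reads of one may have been counted for the other. In GRCr8, 27 of the 62 genes overlap another annotated gene, among them Dnah3, Adamts16, Rnd1, Tmem132a, Kcnn1, Pde1c and Prss53. The share over all genes tested was not counted. The reads were counted on mRatBN7.2, and whether its annotation holds the same overlaps was not checked. The values of these genes are uncertain where it does.

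Among the next largest rises, LOC120096227, a long non-coding RNA, was at 0.115 ± 0.151 CPM in untreated and 1.51 ± 0.192 CPM in IL-1βlow cells (SD, n = 3), and 1 untreated library had none. Rtbdn, which encodes the riboflavin-binding protein retbindin, stood at 2.69, 1.89 and 1.46 CPM in untreated and at 19.9, 15.76 and 11.3 CPM in IL-1βlow libraries. Its groups were far apart although the IL-1βlow libraries spread over a wide range, and its log2 fold change was 2.95 (standard error 0.29, adjusted p = 1.3e-04). LOC100910973, a second long non-coding RNA, rose from 1.42 ± 0.259 to 7.81 ± 1.29 CPM, a log2 fold change of 2.45 with a standard error of 0.17. Stap2, a signalling adaptor, rose by a log2 fold change of 2.63, the secreted serine protease Htra3 by 2.62, the axonemal dynein heavy chain Dnah3 by 2.48 and Mab21l3 by 2.19. Each of these 4 stayed below 5 CPM in the 6 libraries.

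Cxcl12, the chemokine that binds CXCR4, was at 4.24, 4.02 and 3.04 CPM in untreated and 12.6, 13.9 and 11.7 CPM in IL-1βlow libraries. The groups were wholly apart, and its log2 fold change was 1.75 (standard error 0.18, adjusted p = 2.0e-04). Col22a1, a collagen, rose by a log2 fold change of 1.79, the secreted metalloprotease Adamts16 by 1.42 and the GTPase Rnd1 by 1.41. Adamts16 was the most even of these, at 2.74 ± 0.0137 CPM in untreated and 7.36 ± 0.567 CPM in IL-1βlow cells (SD, n = 3).

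The remaining 23 rises ranged from 1.40 for Mmd2 to 0.61 for Gadd45a, a gene induced by DNA damage. They included Madcam1 at 1.36, a ligand of lymphocyte integrins, the B-cell adaptor Blnk at 1.19 and Relt at 1.00, a member of the tumour necrosis factor receptor family. Adcyap1r1, the PACAP receptor that raises cAMP in β-cells, rose by 1.03, and Gch1, which makes the cofactor of nitric oxide synthases, by 0.69. Rhbdf2, which helps the sheddase of tumour necrosis factor to the cell surface, rose by 0.92. The largest gain in level was that of Tmem132a, from 719, 686 and 687 CPM in untreated to 1139, 1209 and 939 CPM in IL-1βlow libraries. That is 0.65 ± 0.11 (SE) as a log2 fold change, with an adjusted p of 0.0090, well below the steep rises in fold but larger than all of them in CPM. Adcyap1r1 and Relt followed, with gains from 67.1 ± 9.24 to 137 ± 19.6 CPM and from 42.5 ± 1.52 to 85.1 ± 11.53 CPM (SD, n = 3).

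**Figure D2:**
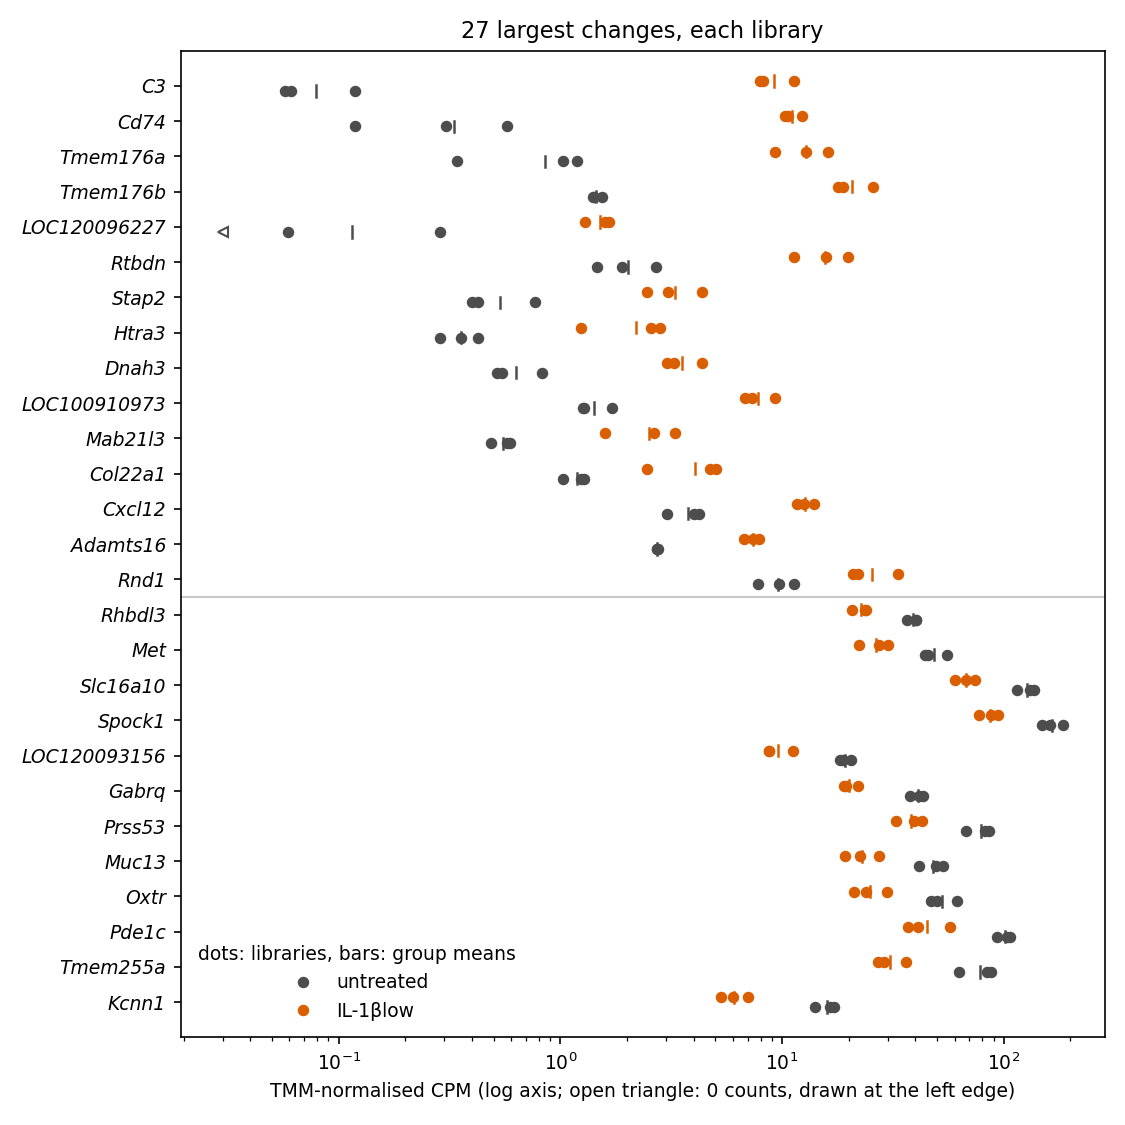
CPM on a log axis in each untreated (grey) and IL-1βlow (orange) library for the 15 largest rises, above the line, and the 12 largest falls, below it, with a bar at each group mean. Dots of the 2 colours do not overlap in any row, which the choice of genes required and which held for 23.7% of all genes tested. The distance between them is widest for C3, where untreated libraries held 0.0573 to 0.118 CPM.

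The falls were led by Kcnn1, which encodes a small-conductance calcium-activated potassium channel of excitable cells. It stood at 17.2, 16.5 and 14.04 CPM in untreated and at 5.33, 6.99 and 5.98 CPM in IL-1βlow libraries. The groups did not overlap, and the log2 fold change was -1.38 (standard error 0.17, adjusted p = 8.5e-04). Tmem255a fell from 78.1 ± 13.5 to 30.8 ± 4.91 CPM (SD, n = 3), a log2 fold change of -1.35. Pde1c, a calmodulin-dependent phosphodiesterase that degrades cAMP and cGMP, was at 104, 106 and 92.9 CPM in untreated and at 37.0, 41.0 and 57.0 CPM in IL-1βlow libraries. IL-1βlow library 3 was the highest of its group, and the log2 fold change was -1.17 (standard error 0.19, adjusted p = 0.0062).

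Oxtr, the oxytocin receptor, stood at 49.9, 61.4 and 47.2 CPM in untreated and at 21.2, 23.9 and 29.7 CPM in IL-1βlow libraries. No IL-1βlow library reached the lowest untreated one, and the log2 fold change was -1.09 (standard error 0.15, adjusted p = 0.0023). The mucin Muc13 fell by 1.06 on the log2 scale, the protease Prss53 by 1.04 and Gabrq, a subunit of GABA type A receptors, by 1.02. Spock1, a secreted proteoglycan, fell by 0.93 on the same scale, the aromatic amino acid transporter Slc16a10 by 0.92, the hepatocyte growth factor receptor Met by 0.86 and Rhbdl3 by 0.78. The other called genes with a log2 fold change below zero included Rab27a at -0.73, a small GTPase that docks insulin granules, the glutamate receptor subunit Grik3 at -0.65 and the synaptic adhesion protein Clstn2 at -0.65.

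Ins2, 1 of the 2 rat insulin genes, had the largest loss in level. It was at 7465, 7737 and 9089 CPM in untreated and at 4779, 4987 and 4926 CPM in IL-1βlow libraries. The IL-1βlow libraries were close together and all lay under the lowest untreated library. The log2 fold change was -0.73 (standard error 0.11, adjusted p = 0.0043), and Ins2 passed the thresholds in 1 of the 6 fits with a library omitted. Ins1, the other insulin gene, was at 20655, 25565 and 25763 CPM in untreated and at 20173, 25344 and 21155 CPM in IL-1βlow libraries. Those ranges overlap, with a log2 fold change of -0.11 and a 95% interval from -0.40 to 0.18. The share of Ins2 in the sum of both genes was 25.3% ± 1.79 in untreated and 18.2% ± 1.49 in IL-1βlow cells (SD, n = 3), and the sum itself was 32091 ± 3525 and 27122 ± 2837 CPM. Both genes are near-identical copies whose reads may have been split between them, so their separate values are uncertain. Ins2 also overlaps another annotated gene in GRCr8.

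Of 22 gene lists drawn up for IL-1 signalling and β-cell biology, 7 held a gene past the thresholds, 1 each. These were Gch1 among the NF-κB targets and feedback regulators (23 tested), Cxcl12 among the chemokines and cytokines (20 tested), Cd74 in the MHC class II pathway (11 tested) and C3 in complement (14 tested) as higher. Ins2 among the insulin, prohormone processing and granule proteins (21 tested), Kcnn1 among glucose sensing and excitability genes (25 tested) and Oxtr among islet cell-surface receptors (23 tested) were lower. In the other 15 lists 0 genes passed in the quasi-likelihood test of edgeR, 1 passed with exactTest (Mt1) and 3 with DESeq2 (Mt1, B2m and Aldh1l2). In the 7 lists with a gene past the thresholds, Cxcl10 also passed with both exactTest and DESeq2, RT1-Ba with exactTest and Serping1 with DESeq2. Over all genes tested, 0.265% passed as higher and 0.168% as lower in the quasi-likelihood test. Of these 14324 genes, 7264 lay above zero and 7040 below. At an unadjusted p under 0.05 stood 13.8% of all genes tested. In the 7 lists, in the order given, 7, 5, 2, 4, 7, 6 and 8 genes stood at that level, and the counts of the others are given with each list.

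Of the 14 NF-κB subunits and inhibitors 0 passed the thresholds and 6 had an unadjusted p under 0.05. Values were above zero for 6 and below for 8, with a median log2 fold change of -0.0098 beside 0.0044 for all genes. Relb, a subunit of the non-canonical pathway, was at 17.0, 18.3 and 17.0 CPM in untreated and 24.8, 24.5 and 21.96 CPM in IL-1βlow libraries. Its groups did not overlap, but its log2 fold change of 0.45 (adjusted p = 0.036) was below the minimum. Nfkb2, its partner subunit, had 0.35 with an adjusted p of 0.12, and the inhibitor gene Nfkbia had -0.08 with a 95% interval from -0.33 to 0.16. The targets and feedback regulators had a median of 0.12. Besides Gch1 (65.3 ± 4.27 to 106 ± 14.001 CPM, adjusted p = 0.0070), the A20-binding regulator Tnip1 had an adjusted p of 0.017 at a log2 fold change of 0.55. Nos2, the inducible nitric oxide synthase, had at most 2 counts in any of the 6 libraries, with a 95% interval of its log2 fold change from -4.64 to 3.56.

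The receptor and the kinases that carry the IL-1 signal lay slightly below zero, 14 of 18 genes, with a median of -0.11, 0 past the thresholds and 1 at an unadjusted p under 0.05. Il1r1, the signalling receptor, was at 404 ± 19.4 CPM in untreated and 362 ± 63.4 CPM in IL-1βlow cells, and the ubiquitin ligase Traf6 had a log2 fold change of -0.22 (adjusted p = 0.43). Il33, a cytokine of the IL-1 family, had -0.54 (adjusted p = 0.36). Il1b itself and Il1rn were not tested. Il1b had 0 counts in all 6 libraries. For a single library taken alone, 0 counts allow an expected count of up to 3 (95% limit, counting error only). The 6 libraries together allow fewer per library.

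The MHC class I pathway, which presents peptides to T cells, leaned higher. Of 22 genes tested, 20 lay above zero, with a median log2 fold change of 0.24. While 0 passed the thresholds, 5 were higher at an adjusted p under 0.05, beside 0.935% of all genes tested. An unadjusted p under 0.05 was held by 12, beside 13.8% of all genes. B2m, the light chain of class I molecules, was at 144, 168 and 144 CPM in untreated and 219, 250 and 219 CPM in IL-1βlow libraries. Each preconditioned library exceeded each untreated one, and the log2 fold change was 0.59 (standard error 0.09, adjusted p = 0.0060), just under the minimum of 0.6. The rat class I heavy chain RT1-CE5 had 0.55 (adjusted p = 0.0062), and RT1-A1, RT1-A2 and RT1-CE10 had 0.47, 0.51 and 0.52. Heavy chain genes are closely related and share reads, so their separate values are uncertain. In the class II list Cd74 was the 1 gene past the thresholds, and the list's median was 0.0861, with 6 genes above zero and 4 below.

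In the interferon response list, 20 of 44 genes were above zero and 23 below, with a median of -0.0137. None passed the thresholds or an adjusted p under 0.05, and 1 had an unadjusted p under 0.05. The smallest p-values of this list belonged to Eif2ak2, the kinase that senses double-stranded RNA, at -0.48 and Ifi27 at 0.22 (adjusted p = 0.34 and 0.38). Cxcl10, a chemokine induced by interferons and counted here in the list of chemokines and cytokines, was at 7.90 ± 1.27 CPM in untreated and 3.75 ± 1.14 CPM in IL-1βlow cells (SD, n = 3). Its log2 fold change was -1.06 with an adjusted p of 0.055, short of the threshold in the quasi-likelihood test and past it with exactTest and DESeq2.

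**Figure D3:**
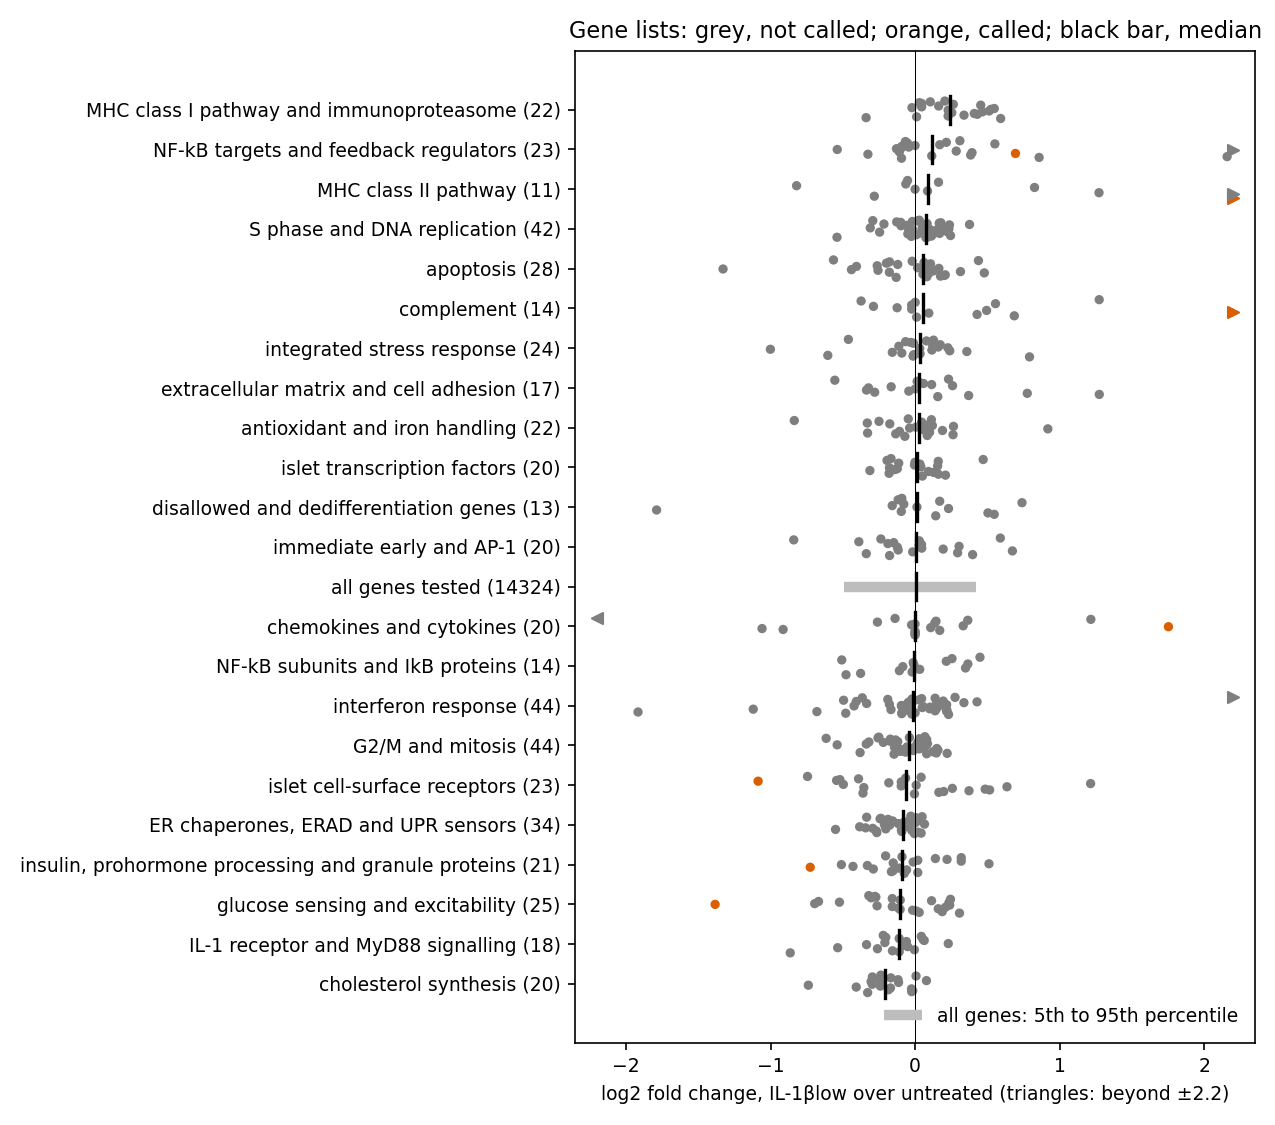
Log2 fold change of IL-1βlow over untreated cells for each tested gene of the 22 lists (number tested in brackets), with list medians as black bars, genes past the thresholds in orange and genes beyond the axis as triangles. The MHC class I median, 0.24, is the highest and the cholesterol synthesis median, -0.21, the lowest, and the grey band gives the middle 90% of all genes.

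Of the islet transcription factors, 10 of 20 lay above zero, with a median of 0.0165, 0 past the thresholds and 3 at an unadjusted p under 0.05. Rfx6, needed for islet development, was at 76.1, 70.3 and 76.8 CPM in untreated and 106, 91.9 and 111 CPM in IL-1βlow libraries. The groups did not overlap, yet its log2 fold change of 0.47 (standard error 0.13) had an adjusted p of 0.094. Insm1 had -0.31 (adjusted p = 0.17). Pdx1, Mafa, Nkx6-1 and Isl1 had 0.16, -0.12, -0.11 and -0.14, with 95% intervals that all contained zero. In the granule list 14 of 21 genes lay below zero, with a median of -0.0906. Pcsk1, the convertase that cuts proinsulin, ranged from 125 to 164 CPM in untreated and from 69.5 to 129 CPM in IL-1βlow libraries, which overlap, at a log2 fold change of -0.51 (adjusted p = 0.24).

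Glucose sensing and excitability genes had a median of -0.10 and 15 of 25 below zero. Abcc8, the sulphonylurea receptor subunit of the KATP channel, had 0.31 (adjusted p = 0.087), and the glucose transporter Slc2a2 had -0.30 (adjusted p = 0.36). Among cell-surface receptors, the GLP-1 receptor Glp1r was at 105, 102 and 106 CPM in untreated and 76.6, 76.8 and 68.8 CPM in IL-1βlow libraries. All 3 IL-1βlow libraries lay lower, and its log2 fold change was -0.50 (adjusted p = 0.049), short of the fold minimum.

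ER chaperones and sensors of the unfolded protein response showed 0 changes past the thresholds, although 27 of 34 genes lay below zero, with a median of -0.0859 and 8 at an unadjusted p under 0.05. The chaperone Hspa5 stood at 1636 ± 182 CPM in untreated and 1548 ± 225 CPM in IL-1βlow cells, a log2 fold change of -0.08 with a 95% interval from -0.31 to 0.15. Hyou1, P4hb and Hsp90b1 had 0.0036, -0.0040 and -0.12, and the ERAD factor Edem1 had -0.34 (adjusted p = 0.087). Ssr1 had -0.34 (adjusted p = 0.24). In the integrated stress response list, 13 of 24 genes lay above zero with a median of 0.0335, and 4 had an unadjusted p under 0.05. Atf4 and Ddit3, its central transcription factors, had -0.0090 and 0.24, with 95% intervals from -0.20 to 0.18 and from -0.15 to 0.63. Aldh1l2 had 0.79 (adjusted p = 0.071) and Gdf15, at 1.76 and 0.871 CPM, had -1.001 (adjusted p = 0.079).

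Of the apoptosis genes 16 of 28 lay above zero, with a median of 0.0581 and 6 at an unadjusted p under 0.05. Cdkn1a, an inhibitor of cyclin-dependent kinases, went from 51.3 ± 2.67 to 38.8 ± 3.82 CPM (SD, n = 3), a log2 fold change of -0.41 (adjusted p = 0.095). The BH3-only genes Bbc3 and Hrk, the pore former Bax and the protective Bcl2 had 0.21, -0.20, 0.20 and 0.0544, with adjusted p-values from 0.38 to 0.88. Antioxidant and iron genes had a median of 0.0255, with 4 of 22 at an unadjusted p under 0.05. In it the metallothionein Mt1 was at 6.59, 7.63 and 7.11 CPM in untreated and 14.4, 14.5 and 11.4 CPM in IL-1βlow libraries, a log2 fold change of 0.92 at an adjusted p of 0.012. The transferrin receptor Tfrc was at 127 and 119 CPM in IL-1βlow libraries 1 and 2, at 226 CPM in library 3 and at 274 to 292 CPM in untreated libraries (log2 fold change -0.84, adjusted p = 0.11).

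Cholesterol synthesis genes leaned lower, 18 of 20 below zero with a median of -0.21, 0 past the thresholds and 4 at an unadjusted p under 0.05. Cyp51, a sterol demethylase, and Insig1, which retains the sterol-sensing complex in the ER, had -0.33 and -0.30 (adjusted p = 0.27 and 0.26). The lists of dividing cells had medians of -0.0404 for 44 genes of G2/M and mitosis and 0.075 for 42 genes of S phase, with 4 and 3 genes at an unadjusted p under 0.05. There, Hmmr had -0.54, Aurkb 0.22, Rfc3 0.38 and Chaf1a 0.25, each with an adjusted p above 0.2. Immediate early genes, disallowed genes and extracellular matrix genes had medians of 0.0055, 0.0130 and 0.02999, with 4, 4 and 5 genes at that level. In these lists Dusp4 had 0.40, Dusp5 -0.34, Fabp3 0.55, Maf -1.79 at under 1 CPM, Cdh2 0.37 and Fn1 -0.34, with adjusted p-values from 0.066 to 0.25.

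**Figure D4:**
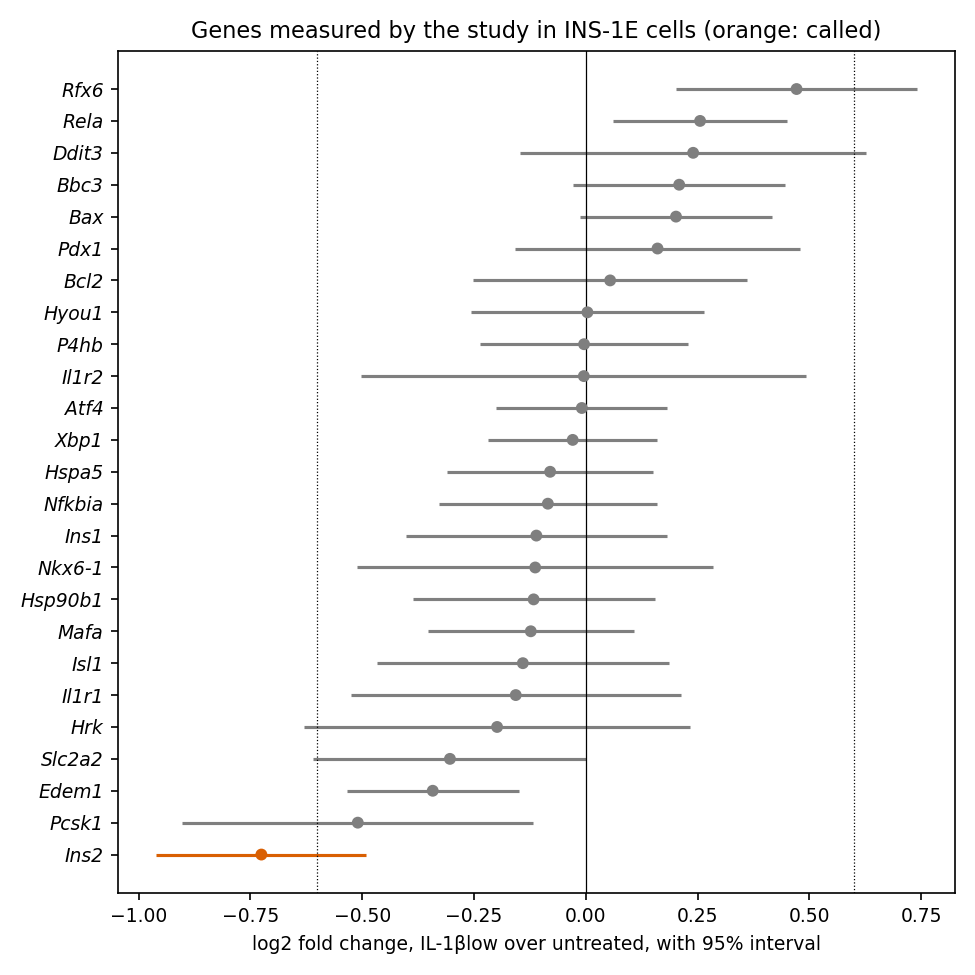
Log2 fold change of IL-1βlow over untreated cells with its 95% interval for 25 genes, among them those assayed in these cells by other methods, with the limits of 0.6 dotted and genes past the thresholds in orange. Ins2, at -0.73, is the 1 orange gene, and most intervals cross zero; Nos2, Il1b, Il1rn and Ucn3 are not drawn because their counts were too low.

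The calls of the 62 genes used a filter, scaling and estimate of spread from all 12 libraries, so challenged libraries had a part. The same 62 genes were then read in challenged cells, where IL-1βlow + CYT was compared with CYT in the 6 libraries outside the first contrast. There 937 genes were higher (6.54%) and 848 lower (5.92%) of 14324, with an adjusted p below 0.01 and more than 1 on the log2 scale. Of the 38 genes that rose without challenge, 11 were also higher by this rule, 3 were lower and 24 passed in neither direction, with a median log2 fold change of 0.39. Of the 24 that fell, 1 was also lower, 1 was higher and 22 passed in neither direction, with a median of -0.13. The genes lower in both states numbered 1 of 24 (4.17%), beside a background of 5.92%. Those higher in both numbered 11 of 38 (28.9%), beside a background of 6.54%. The minimum was 1 here but 0.6 in the first comparison. There, 25 of the 38 rises and 8 of the 24 falls changed more than 2-fold, so most falls of unchanged size could not pass here. By sign alone, 28 of the 38 lay above zero and 16 of the 24 below it in challenged cells. The median over all genes was 0.0226 there. The 12 genes that passed in the same direction in both were Tmem176a, Tmem176b, Rtbdn, Dnah3, LOC100910973, Cxcl12, Adamts16, Rnd1, Mmd2, Car2 and Gch1 as higher and Kcnn1 as lower. Leaving out IL-1βlow + CYT library 3 raised this number to 22, and leaving out untreated library 1, untreated library 3 or IL-1βlow library 2 lowered it to 7.

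For some genes the fold changes in both states lay close together. Rtbdn had 10.6 ± 2.97 CPM in cells given CYT and 60.4 ± 13.8 CPM in those preconditioned first (SD, n = 3), or 2.51 on the log2 scale beside 2.95 without challenge. Kcnn1 was at 15.5 ± 2.43 and 5.23 ± 0.871 CPM, a log2 fold change of -1.57 (adjusted p = 4.4e-06) beside -1.38. Adamts16 had 1.29 beside 1.42, and Mmd2 had 1.496 beside 1.40. The rise of Cxcl12 was larger under challenge. It had 2.28 ± 0.385 CPM without and 21.8 ± 4.16 CPM with preconditioning, 3.26 ± 0.19 (SE) as a log2 fold change, with an adjusted p of 2.3e-08, beside 1.75 without challenge (interaction 1.51, adjusted p = 6.3e-04).

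Others went the opposite way. C3 reached 341 ± 25.4 CPM in CYT libraries and 155 ± 29.5 CPM (SD, n = 3) after preconditioning, -1.14 ± 0.13 (SE) as a log2 fold change, with an adjusted p of 8.4e-06. Fhl2, a LIM-domain cofactor, and Gadd45a were lower by -1.63 and -1.04 on the log2 scale. Oxtr, which fell without challenge, had 0.749 ± 0.131 CPM in CYT libraries and 4.19 ± 0.859 CPM after preconditioning, 2.48 ± 0.25 (SE) as a log2 fold change, with an adjusted p of 2.5e-06. Cd74 was at 395 ± 31.1 and 249 ± 7.84 CPM, with a log2 fold change of -0.66 that stayed under the minimum of 1.

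The difference between both responses was tested as the interaction of preconditioning and challenge, which passed for 1530 of 14324 genes (10.7%), with an adjusted p below 0.01 and a log2 coefficient beyond 1 in either direction. Of the 38 rising genes 19 passed, 18 of them with a smaller or opposite effect under challenge and Cxcl12 with a larger one, by 1.51 on the log2 scale. Of the 24 falling genes 6 passed, all with a smaller or opposite effect. The 62 genes were chosen by a contrast between 6 of the 12 libraries that this test uses, so the choice alone favours a smaller effect under challenge.

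**Figure D5:**
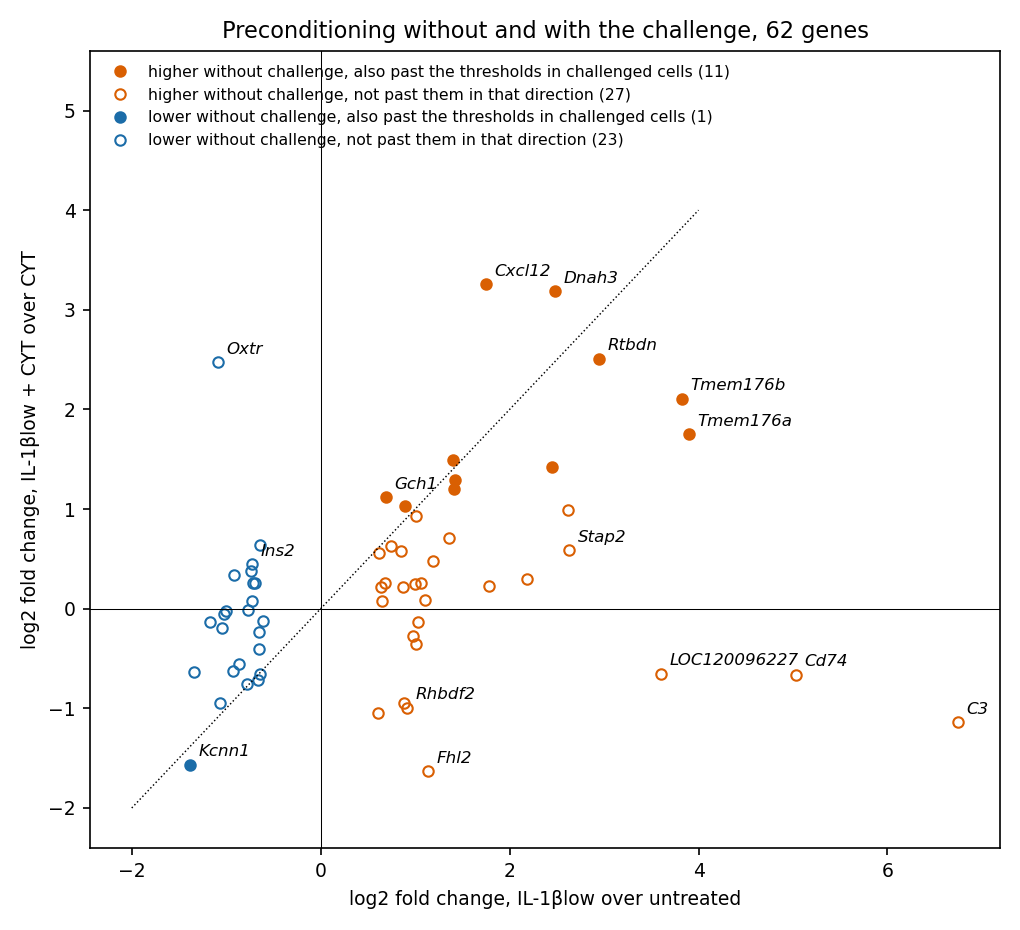
Log2 fold change of preconditioning in challenged cells (IL-1βlow + CYT over CYT, y axis) against that in unchallenged cells (IL-1βlow over untreated, x axis) for the 62 genes, with genes past the thresholds in the same direction in both as filled circles and equal effects on the dotted line. The 11 filled orange circles and the filled blue one, Kcnn1, lie in the quadrants of equal sign, whereas C3, Cd74 and Fhl2 lie below zero on the y axis and Oxtr above it.

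The CYT challenge alone, against untreated cells, made 1439 genes higher (10.0%) and 1657 lower (11.6%) at the same limits. Of the 38 rises with preconditioning 26 were higher and 0 lower in that comparison, and of the 24 falls 15 were lower and 0 higher. Both comparisons use the same 3 untreated libraries, so this is no independent count, and the values are given side by side. C3 stood at 0.0788 ± 0.0343 CPM in untreated, 9.19 ± 1.90 CPM in IL-1βlow and 341 ± 25.4 CPM in CYT cells, and Cd74 at 0.332 ± 0.229, 11.1 ± 1.07 and 395 ± 31.1 CPM (SD, n = 3). Cxcl12 was at 3.77 ± 0.640, 12.7 ± 1.14 and 2.28 ± 0.385 CPM, Dnah3 at 0.630 ± 0.172, 3.55 ± 0.708 and 0.386 ± 0.223 CPM and Kcnn1 at 15.9 ± 1.64, 6.10 ± 0.837 and 15.5 ± 2.43 CPM. For the last 3 genes the IL-1βlow group stood apart from both the untreated and the CYT group.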

How the data were processed

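Polyadenylated RNA of INS-1E cells was sequenced by the authors from TruSeq libraries. They checked the reads with FastQC, trimmed them, aligned them to mRatBN7.2 and deposited counts per gene symbol from featureCounts as whole numbers without normalization. The strand setting is not given in the sources used here. All 12 columns were matched to samples by library name.

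Genes over 1 CPM in at least 2 libraries were kept, scaled by TMM and fitted over all 12 libraries (4 groups, no block, 8 residual degrees of freedom, common biological coefficient of variation 0.123) with R 4.3.3 and edgeR 4.0.16, the quasi-likelihood test in place of the study's exactTest. Limits were those of the study's methods, an adjusted p below 0.01 with a log2 fold change beyond 0.6, or beyond 1 in the other contrasts. Intervals are log2 fold change ± the 95% t quantile times the standard error. The chi-square of counts between libraries of 1 group was 10.4 to 25.0 per degree of freedom, above sampling noise. That cannot show whether the libraries are independent. The libraries are labelled as biological replicates and each was counted as 1, and p-values measure the spread between these samples. An exact permutation test of 3 against 3 cannot go below p = 0.1.

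Named were the 15 largest rises and 12 largest falls, every list member past the thresholds, the 2 smallest p-values of each other list, genes the study measured and the 3 largest gains and losses in CPM. Other genes of the lists are given where their adjusted p was under 0.1 or they belong with a named gene, a choice made after their values were seen. Some genes these rules name are not reported here. The comparison, lists and tests were chosen with earlier results of these data known. Scripts were tested on simulated counts. Of 14324 genes 13385 matched RefSeq of GRCr8, which was used for names, overlaps and promoters, and 27 of the 62 genes overlap another there.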

Additional observations from a re-analysis of the deposited data

Results flagged for a closer look

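For 25 of the 62 genes the effect of preconditioning differed between challenged and unchallenged cells in the interaction test (edgeR's quasi-likelihood test, adjusted p under 0.01 and an absolute log2 coefficient over 1, which 10.7% of all genes passed). Coefficients are the log2 effect under challenge minus that without it. The genes were chosen by a contrast between 6 of the 12 libraries that the test uses, which favours coefficients that shrink the first effect. Among the genes that rose, the coefficients furthest below zero were those of C3 -7.89, Cd74 -5.69, LOC120096227 -4.26, Fhl2 -2.77, Tmem176a -2.15 and Stap2 -2.05. They were followed by Rhbdf2 -1.91, Mab21l3 -1.89, Rab15 -1.83, Tmem176b -1.72, Gadd45a -1.65 and Htra3 -1.63, and then by Col22a1 -1.56, Gxylt2 -1.37, Alpl -1.25, Adcyap1r1 -1.16, LOC100910973 -1.03 and Cxadrl1 -1.02. The only coefficient above zero among these 19 genes was that of Cxcl12, at 1.51. Among the genes that fell, all 6 coefficients were above zero, at Oxtr 3.56, Lmo7 1.28, Slc16a10 1.25, Ins2 1.17, Rab27a 1.11 and Pde1c 1.04. Groups of 3 libraries were not searched for single libraries far from the rest.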

How the results depend on the processing

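Among the 62 genes, the direction of those picked by the naming rules held in every fit in which they were tested. For the rest, direction was not recorded in each fit. The number past the thresholds was 68 with RLE size factors, 138 with exactTest and 138 with DESeq2's Wald test. It was 229 with no filter on low counts and 76 with only the 2 groups. With at least 10 counts in every library it was 53, of which 28 were higher and 25 lower. It was 193 at an adjusted p under 0.05 with no minimum and 10 with glmTreat, which tests against the minimum itself. Leaving out 1 library gave 16 to 74. The number that also passed in challenged cells, 12, was 33 with exactTest, 27 with DESeq2, 50 with no filter and 22 with a minimum of 0.6, and 7 to 22 with 1 library left out, the challenged ones being an alternative added after seeing the data. The cause of these shifts was not tested.

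A fit with a replicate block passed 141 genes, all 62 among them, and 31 also passed in challenged cells. Deviations of same-numbered untreated and IL-1βlow libraries correlated at 0.15, 0.19 and -0.21, and 2 of the 6 libraries correlated best with their own number. These few values cannot show whether same-numbered samples belong together. The labels give a replicate number and state no pairing.

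Among named genes, Col22a1 missed the threshold with only the 2 groups (adjusted p = 0.012), and B2m, Mt1, Tfrc and Aldh1l2 passed under 3, 5, 2 and 3 alternatives. Values near zero of genes that did not pass changed sign. Atf4 was 0.0042 with RLE, 0.0041 with DESeq2 and 0.010 with no filter, Il1r2 0.0097, 0.010 and 0.017, and P4hb 0.0090, 0.0090 and 0.015 in that order. Hyou1 was -0.0012 with at least 10 counts and -0.0027 with only the 2 groups. Leaving out 1 library gave -0.0713 to 0.0252 for Atf4, -0.00062 to 0.128 for Bcl2, -0.345 to 0.0024 for Hrk, -0.104 to 0.116 for Hyou1, -0.227 to 0.177 for Il1r2, -0.337 to 0.0589 for Nkx6-1, -1.07 to 0.289 for Nos2, -0.0946 to 0.0788 for P4hb and -0.0640 to 0.0083 for Xbp1. List medians changed sign in 26 of 264 values, over 8 lists. The medians of MHC class I genes (0.17 to 0.27), ER chaperones (-0.16 to -0.0482) and cholesterol synthesis (-0.27 to -0.12) did not.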

Other observations

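The marker lists of other pancreatic cells held 2 genes with an adjusted p under 0.05 in edgeR's quasi-likelihood test, both below the fold minimum or the p threshold used for calls. That level was passed as higher by 0.935% of all genes tested. Ctrb1, the acinar protease precursor chymotrypsinogen B, was at 1.43, 1.24 and 1.22 CPM in untreated and 3.13, 3.93 and 2.65 CPM in IL-1βlow libraries (log2 fold change 1.31, adjusted p = 0.038). The other 4 acinar markers had 0 counts or a single count over all 6 libraries. Krt7, a keratin of ductal cells, was at 172, 202 and 178 CPM in untreated and 274, 313 and 245 CPM in IL-1βlow libraries (log2 fold change 0.59, adjusted p = 0.036), while the ductal markers Krt19 and Cftr had 0 counts in all 6.

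Gcg, the glucagon gene, was counted at 185 to 367 CPM in untreated and 155 to 259 CPM in IL-1βlow libraries, ranges that overlap, although Irx2, another α-cell marker, had 0 counts in all 6 libraries.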
